A study of Mus musculus with 13 samples.

Results

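The DNA replication machinery of the liver is described here through 41 genes, taken as a list of named factors for origin licensing, the replication fork, nucleotide supply and chromatin assembly. All 41 were found by gene symbol among the 53465 genes of the count table, and 39 of them passed the expression filter of the test. The mice were WT (n = 6) or Nod2-/- (n = 7), both on the BALB/c background, with 1 liver library per mouse. All of them, controls included, received the carcinogen DMBA and a high-fat diet, and the labels give an age of 30 weeks, 30 weeks of diet and a disease state of cancer for every mouse. Per the study's methods, the mice were males given DMBA once as pups, and the Nod2-/- line had been brought onto the BALB/c background and was bred apart from the WT colony in the same facility. Differences between the genotypes can therefore include differences between colonies, which cannot be told apart from the Nod2 deletion in this design. The study reported liver tumors in most Nod2-/- males but only a minority of WT males under this treatment, which the shared label of cancer does not show. Differences in tumor burden cannot be told apart from the deletion either. The comparison of the 2 genotypes addresses which liver transcripts differ when Nod2, an intracellular sensor of bacterial cell wall fragments, is absent in this obesity-dependent tumor model.

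Before a cell divides, the origin recognition complex marks the start sites on DNA, and Cdc6 and Cdt1 load the ring-shaped MCM helicase there. Kinases, Cdc45, the GINS complex and Mcm10 then turn the loaded ring into an active helicase, polymerases copy the opened strands around the Pcna clamp, and Fen1 and Lig1 join the short fragments of the lagging strand. Most of these genes are under the control of E2F transcription factors and are transcribed mainly in cells that enter the cycle, so their transcripts are scarce in adult liver, where most hepatocytes rest.

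Between 14886273 and 20579984 reads per WT mouse and between 13824780 and 19391431 reads per Nod2-/- mouse were counted on genes. Nod2 itself had 0 to 4 counts in WT mice and 1 to 6 counts in Nod2-/- mice, so its transcript did not check the genotype labels. The 10 hepatocyte markers were present in every library, with a summed level of at least 1529400 normalized counts (counts scaled to a common library size). The library of Nod2-/- 7 stood apart in its markers of other cell types. All 12 neutrophil markers were highest in this mouse, where they summed to 16870 normalized counts, against 103 to 711 in the other Nod2-/- mice and 69.1 to 162 in WT mice. Of these 12 markers, 8 were at 0 in at least 1 WT mouse and none was at 0 in every WT mouse. The granule genes Mpo and Elane, made by neutrophil precursors, were at 0 to 3.62 and 0 to 4.91 normalized counts in WT mice and at 437 and 186 in Nod2-/- 7. The Kupffer cell markers were also mostly highest in Nod2-/- 7 (5 of 6), with a sum of 5957 normalized counts, against 1618 to 2743 in WT mice. Endothelial markers summed to 3587 normalized counts in that mouse, against 2446 to 3454 in WT mice. Of the erythroid and B cell markers, 5 of 8 and 4 of 6 were highest there, but their sums did not stand out. The erythroid sum was 5682 in Nod2-/- 7 and 3286 to 5689 in WT mice. The sums of hepatocyte, cholangiocyte, T cell, B cell and erythroid markers lay within the range of the other mice. Fold changes of tested replication genes that were highest in this mouse are given below with and without it. In whole liver, fewer cells of a type and less RNA per cell cannot be told apart.

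Most replication genes were weakly transcribed in these livers. Levels of different genes were compared per length, in RPKM, that is reads corrected for the length of the merged exons and for library size. The median of the 41 genes was 1.05 RPKM over all mice, and 20 genes lay under 1 RPKM, 15 between 1 and 5 and 6 at or above 5. The highest levels were those of Mcm10, a helicase activator, at 22.7 ± 3.34 RPKM in WT mice (SD, n = 6) and 13.8 ± 7.12 in Nod2-/- mice (SD, n = 7), and of Gins4, a GINS subunit, at 13.98 ± 1.67 and 11.9 ± 1.51. The genes of their partners in the same complexes were far lower. The other GINS subunits had 0.220 (Gins2), 0.402 (Gins3) and 2.41 RPKM (Gins1) over all mice, and Cdc45 had 0.321. The MCM2-7 ring, whose 6 subunits are present in equal number in the protein complex, ranged from 0.511 RPKM for Mcm6 to 2.79 RPKM for Mcm7. Gins2 shares 2758 of its 4097 exon bases with Gse1, Cdc45 shares 209 with Ufd1, and Mcm7 shares 64 with Cops6 and 321 with Ap4m1. These partners are more abundant and on the opposite strand, so the levels of Gins2, Cdc45 and Mcm7 are uncertain, as given for Orc6 below. Next in order after Mcm10 and Gins4 were the clamp Pcna (6.77 RPKM), Rpa1 (6.15), Gmnn (5.43) and Rpa3 (5.24), and neighbours among these 4 differed by less than the SD between Nod2-/- mice. At the bottom were Orc1 (0.0292 RPKM) and Cdc6 (0.0656), both below the expression filter.

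**Figure D1:**
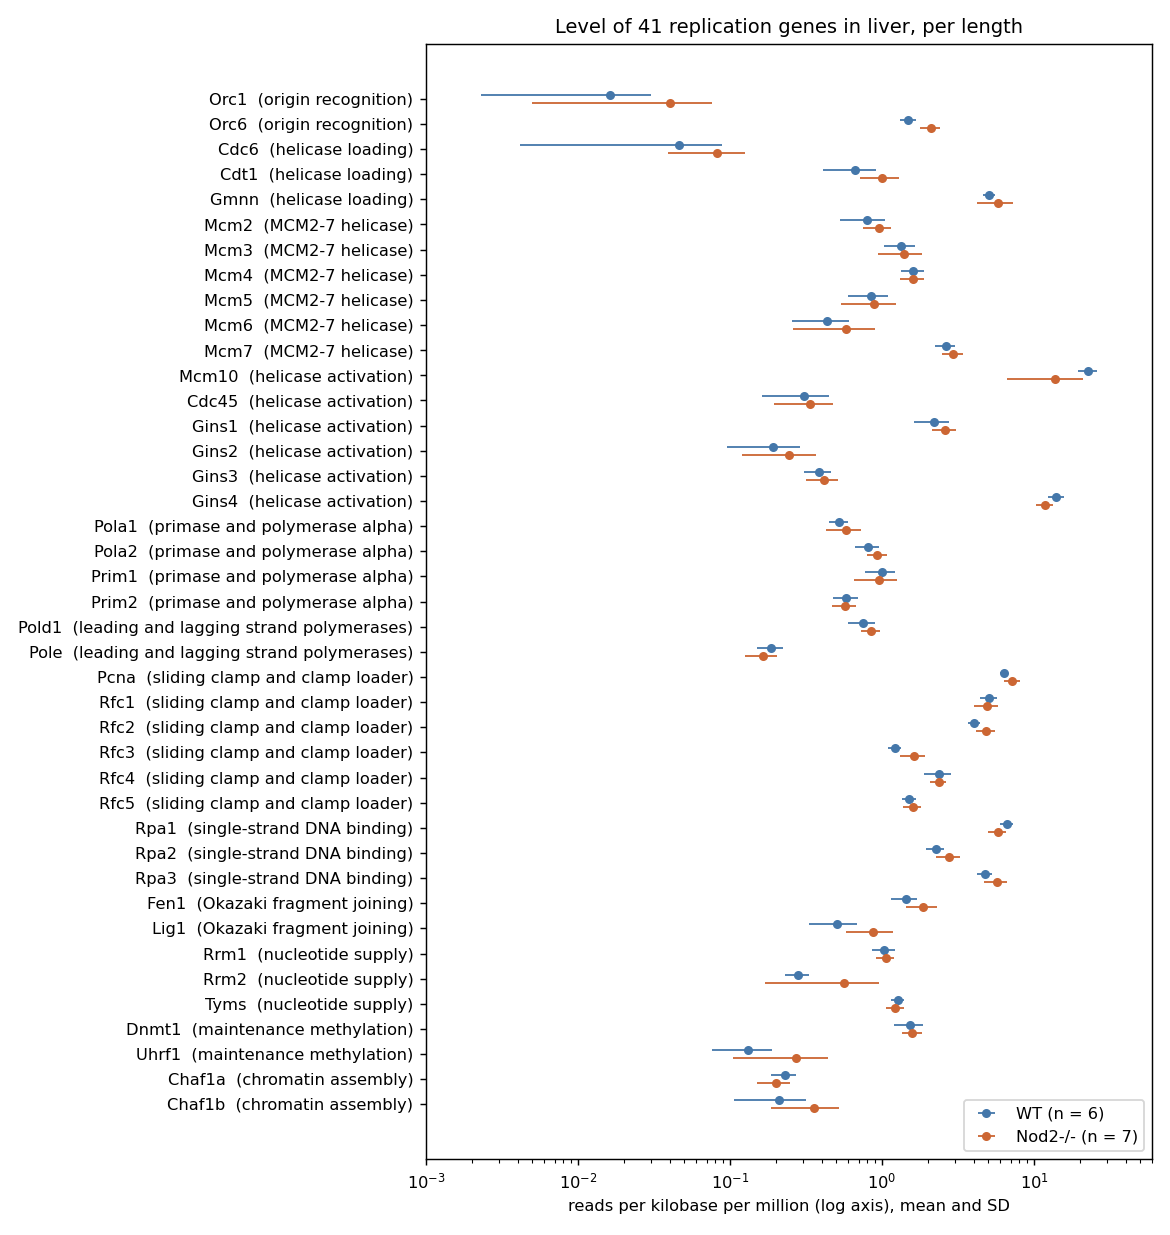
Level of each of the 41 replication genes in WT (blue, n = 6) and Nod2-/- (orange, n = 7) livers, as mean and SD in RPKM on a log axis, in order of role. Mcm10 and Gins4 lie far to the right of the other helicase genes, and Orc1 and Cdc6 lie to the left of all others.

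The promoters of these genes were searched for short sequences that the list of names did not use. RefSeq promoter windows, from 250 bases before to 50 bases after the start of each gene on GRCm38.p6, were matched by symbol for 33 of the 41 genes. Not matched were Gmnn, Mcm4, Gins1, Gins2, Gins4, Prim2, Pole and Rfc2. The letters TTTCCCGC, TTTGGCGC, TTTCGCGC or TTTGCCGC, known as sequences that E2F factors bind, were searched on both strands. They were present in 14 of the 33 genes (42.4%), namely Orc1, Cdc6, Cdt1, Mcm3, Mcm5, Mcm6, Mcm7, Gins3, Pola1, Pold1, Rfc3, Lig1, Dnmt1 and Uhrf1. Over all 27025 genes with a window the share was 2.60%, and over all 32851 windows it was 2.26%, while it was 27.1% among the other replication, E2F and RB genes described below (13 of 48 matched). The letters CCAAT, read on either strand and known from the NF-Y factor, were in 23 of the 33 genes (69.7%), against 41.1% of all genes and 37.4% of all windows. Among mitosis genes CCAAT was more common still (12 of 14, 85.7%) and the E2F letters were in 1 of 14. Some of these genes have more than 1 window, and a gene was counted when any of its windows held the letters. A match is a description of the sequence and does not show a bound site. The windows of 7 genes are printed because the results below turn on them. Mcm3 (chr1:20820263-20820562, minus strand), Mcm5 (chr8:75109259-75109558, plus strand), Mcm6 (chr1:128359656-128359955, minus strand) and Uhrf1 (chr17:56304063-56304362, plus strand) hold the E2F letters and were highest in Nod2-/- 7. Rrm2 (chr12:24708004-24708303, plus strand) was highest in that mouse too but holds none of the E2F letters in this window. Neither do Mcm10 (chr2:5012742-5013041, minus strand) and Rpa1 (chr11:75348334-75348633, minus strand), which had lower mean levels in Nod2-/- mice. The Mcm10 window ends in tttggcg, the start of the searched word TTTGGCGC. Bases beyond the window were not searched, so whether a match crosses that edge is not known here. These 7 genes do not stand for the rest. Of the other genes highest in Nod2-/- 7 that have a window, Cdt1 and Lig1 hold the E2F letters. Mcm2, Cdc45, Rfc5, Chaf1a and Chaf1b, also highest in that mouse, do not. Each window is written 5′ to 3′ along the strand of its gene, and capitals mark the E2F letters (8 letters each) and CCAAT or its reverse ATTGG.
Mcm3: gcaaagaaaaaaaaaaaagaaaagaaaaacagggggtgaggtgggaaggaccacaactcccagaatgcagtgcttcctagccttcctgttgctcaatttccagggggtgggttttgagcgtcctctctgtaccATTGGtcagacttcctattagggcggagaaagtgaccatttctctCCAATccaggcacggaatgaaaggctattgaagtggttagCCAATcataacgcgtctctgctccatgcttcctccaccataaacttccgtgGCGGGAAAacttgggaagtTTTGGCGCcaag
Mcm5: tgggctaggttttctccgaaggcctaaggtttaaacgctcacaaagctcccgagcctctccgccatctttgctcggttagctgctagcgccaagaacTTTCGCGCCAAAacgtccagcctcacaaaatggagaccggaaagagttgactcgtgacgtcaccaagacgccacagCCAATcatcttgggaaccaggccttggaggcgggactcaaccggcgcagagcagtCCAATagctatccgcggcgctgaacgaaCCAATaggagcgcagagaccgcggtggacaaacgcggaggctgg
Mcm6: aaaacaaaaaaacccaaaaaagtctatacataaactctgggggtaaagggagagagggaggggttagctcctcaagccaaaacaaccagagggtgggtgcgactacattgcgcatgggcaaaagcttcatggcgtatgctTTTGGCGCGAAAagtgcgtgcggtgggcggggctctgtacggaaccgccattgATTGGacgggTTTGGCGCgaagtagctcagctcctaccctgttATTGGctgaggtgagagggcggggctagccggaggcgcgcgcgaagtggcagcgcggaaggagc
Uhrf1: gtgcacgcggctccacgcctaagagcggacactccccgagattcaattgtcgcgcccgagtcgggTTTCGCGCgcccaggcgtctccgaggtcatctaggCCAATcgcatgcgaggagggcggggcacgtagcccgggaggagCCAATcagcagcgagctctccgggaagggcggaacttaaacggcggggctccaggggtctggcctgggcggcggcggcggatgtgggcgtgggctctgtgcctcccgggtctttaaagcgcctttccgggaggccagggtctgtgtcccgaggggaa
Rrm2: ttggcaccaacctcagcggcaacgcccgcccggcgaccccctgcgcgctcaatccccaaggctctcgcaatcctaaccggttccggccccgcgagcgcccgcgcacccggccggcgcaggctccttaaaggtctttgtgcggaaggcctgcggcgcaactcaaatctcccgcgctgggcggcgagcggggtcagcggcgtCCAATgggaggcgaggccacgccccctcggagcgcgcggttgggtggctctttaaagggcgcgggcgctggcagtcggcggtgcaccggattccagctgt
Mcm10: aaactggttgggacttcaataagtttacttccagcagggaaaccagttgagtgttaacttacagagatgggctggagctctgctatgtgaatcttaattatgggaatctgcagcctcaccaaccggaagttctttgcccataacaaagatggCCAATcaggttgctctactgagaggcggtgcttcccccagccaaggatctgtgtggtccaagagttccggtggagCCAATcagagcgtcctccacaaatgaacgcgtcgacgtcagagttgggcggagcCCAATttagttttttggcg
Rpa1: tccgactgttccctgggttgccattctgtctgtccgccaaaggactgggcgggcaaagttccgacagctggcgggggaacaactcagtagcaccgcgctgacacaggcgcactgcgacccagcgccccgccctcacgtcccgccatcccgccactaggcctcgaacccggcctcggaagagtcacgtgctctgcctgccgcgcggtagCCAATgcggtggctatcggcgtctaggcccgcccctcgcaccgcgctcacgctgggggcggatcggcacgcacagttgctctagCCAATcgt
In Mcm5 the capitals TTTCGCGCCAAA hold 2 overlapping E2F matches, and in Mcm6 the capitals TTTGGCGCGAAA hold 2 as well. Mcm6 has 3 E2F matches in all, Mcm3 has 2 that do not overlap, and Uhrf1 has 1. No E2F match overlaps a CCAAT match in these 7 windows. Among the tested genes, those with the E2F letters were 12, with a median log2 fold change of 0.13 (0.013 to 1.01) between the genotypes, and those with a window but without these letters were 19, with a median of 0.099 (-0.78 to 0.96).

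No gene of the replication machinery passed 5% FDR between the genotypes by edgeR's quasi-likelihood test, with p adjusted by Benjamini and Hochberg's method over the 13545 genes tested (0 of 39 higher or lower), where 1.16% of all genes tested did (0.65% higher and 0.509% lower in Nod2-/- mice). At an unadjusted p under 0.05 there were 9 of 39 genes (23.1%), the same percentage as over all genes tested (23.1%). The genes with higher levels in Nod2-/- mice at that threshold were Orc6, Cdt1, Rfc3, Lig1, Rrm2 and Uhrf1 (6 of 39, 15.4%, against 12.9% of all genes), and those with lower levels were Mcm10, Gins4 and Rpa1 (3 of 39, 7.69%, against 10.2%). The fitted log2 fold change was above 0 for 27 of the 39 genes and below 0 for 12, where it was above 0 for 52.3% of all genes tested. Its median was 0.11, against 0.016 over all genes tested, and 0.075 without Nod2-/- 7. DESeq2, another count test, placed Mcm10 (log2 fold change -0.80, adjusted p = 0.0401) and Rpa1 (log2 fold change -0.27, adjusted p = 0.0405) past 5% FDR. That is 2 of 39 genes (5.13%), where DESeq2 called 8.41% of the genes it tested in either direction and 4.03% lower. Without Nod2-/- 7, edgeR again called none of the 39 genes at 5% FDR (0.403% of all genes), and 7 of 39 (17.9%) had an unadjusted p under 0.05, against 18.1% of all genes. Levels did not overlap between the genotypes for 1 gene, Orc6, in which every Nod2-/- mouse lay above every WT mouse, as in 0.753% of all genes tested, and 0 genes had every Nod2-/- mouse below every WT mouse (0.687% of all genes). With the replicate number of the labels as a block, 3 genes had an unadjusted p under 0.05 with higher levels (9.8% of all genes). Markers of other cell types were compared between the genotypes in the same edgeR fit. Of the 5 tested cholangiocyte and progenitor markers, 1 passed 5% FDR, Sox9, with higher levels in Nod2-/- mice (log2 fold change 1.29, adjusted p = 0.0324), and 0 passed without Nod2-/- 7. Their summed level was 592 to 3576 normalized counts in the WT group and 1777 to 6660 in the Nod2-/- group, most of it from Spp1 (511 to 3456 and 1541 to 6425), while the keratins Krt7 and Krt19 had log2 fold changes of -0.047 and -0.40 and Epcam one of 0.24, none past 5% FDR. All 4 tested neutrophil markers had higher levels in Nod2-/- mice at an unadjusted p under 0.05 (median log2 fold change 3.42). None of them passed 5% FDR by edgeR (lowest adjusted p = 0.0656). Without Nod2-/- 7, 3 of the 4 markers had an unadjusted p under 0.05, with a median of 1.28. Their part in the values of the replication genes was not tested.

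**Figure D2:**
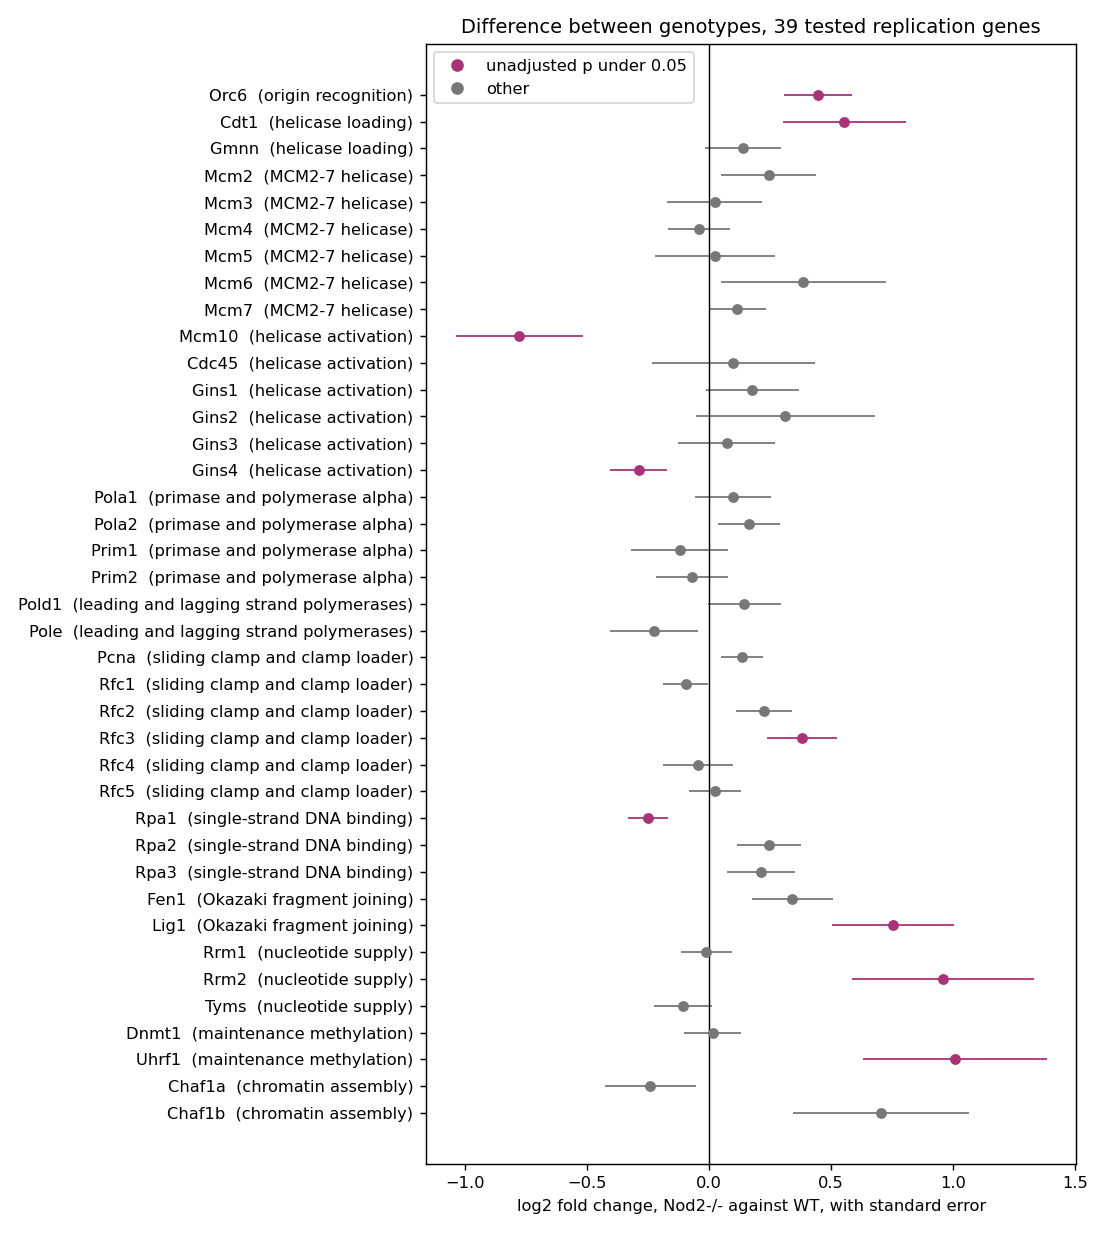
Fitted log2 fold change of Nod2-/- against WT livers with its standard error for the 39 tested replication genes, in order of role, with genes at an unadjusted p under 0.05 in purple. Mcm10 lies farthest to the left at -0.78 and Uhrf1 farthest to the right at 1.01, and the 6 MCM2-7 genes lie between -0.042 and 0.39.

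Origin recognition was represented by Orc1, the largest subunit of the complex, and Orc6, its smallest. Orc1 (chromosome 4, 108579423 to 108614833) had at most 2 counts in WT mice and at most 6 in Nod2-/- mice, too few for a test. Orc6 (chromosome 8, 85299632 to 85308278) had 47.0, 62.5 and 71.3 normalized counts in WT mice (lowest, median and highest) and 72.9, 77.4 and 102 in Nod2-/- mice. All 7 Nod2-/- mice were above the highest WT mouse, although with RLE normalization in place of TMM the genotypes overlapped. Its log2 fold change was 0.44 ± 0.14 (SE, adjusted p = 0.0929), and 0.41 without Nod2-/- 7. Orc6 lies 3.36 Mb from Nod2 on the same chromosome, and the part of that position in this value was not tested. Its exons also share 171 bases with Vps35 on the opposite strand, a gene with a mean of 1472 normalized counts, against 74.1 for Orc6. The libraries were made with a strand-specific kit, but the use of strand in counting is not given in the sources used here, so values of such genes are uncertain.

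Helicase loading needs Cdc6 and Cdt1, and geminin (Gmnn) blocks Cdt1 until the next cycle. Cdc6 (chromosome 11, 98907801 to 98923940) had 0 to 9.87 normalized counts in WT mice (median 3.49) and 1.14 to 12.7 in Nod2-/- mice (median 6.98), with its highest value in Nod2-/- 7, and was not tested. Cdt1 (chromosome 8, 122568015 to 122573554) had 18.6, 32.5 and 53.2 normalized counts in WT mice and 35.96, 51.5 and 77.4 in Nod2-/- mice (lowest, median and highest). All 7 Nod2-/- mice lay above the WT median, 3 of them above the highest WT mouse, and the log2 fold change was 0.55 ± 0.25 (SE, adjusted p = 0.203), or 0.42 without Nod2-/- 7. Gmnn (chromosome 13, 24751845 to 24761923), the most abundant of these loading genes per length, had 106, 122 and 147 normalized counts in WT mice and 98.6, 134 and 193 in Nod2-/- mice. The range of WT mice lay within that of Nod2-/- mice, with a log2 fold change of 0.14 ± 0.16 (SE, adjusted p = 0.612).

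The MCM2-7 helicase, the ring that unwinds DNA at the fork, did not separate the genotypes. None of its 6 genes had an unadjusted p under 0.05 by edgeR, the log2 fold changes ran from -0.042 for Mcm4 to 0.39 for Mcm6, and their median was 0.069. Summed over the 6 genes, WT mice had 478, 532 and 673 normalized counts (lowest, median and highest) and Nod2-/- mice had 498, 575 and 818. The highest WT sum was that of WT 6 and the highest sum of all was that of Nod2-/- 7. Mcm7 (chromosome 5, 138164583 to 138172422), the most abundant subunit per length, had 168 to 249 normalized counts in WT mice (median 188) and 167 to 258 in Nod2-/- mice (median 201), with a log2 fold change of 0.11 ± 0.12 (SE, adjusted p = 0.575). The subunits differed in how far they followed Nod2-/- 7. Mcm6 was at 97.0 normalized counts in Nod2-/- 7 and at 22.9 to 43.6 in the other 6 Nod2-/- mice, against 17.5 to 50.8 in WT mice. Mcm5 was at 106 in Nod2-/- 7 and at 38.0 to 62.4 in the others, and Mcm3 was at 145 and at 58.6 to 93.3. Mcm4 and Mcm7 did not stand out in that mouse, which at 108 and 225 normalized counts was not the highest for either. Without Nod2-/- 7 the median log2 fold change of the 6 genes was -0.0067. Mcm3 was then at -0.16 (0.022 with that mouse), Mcm5 at -0.19 (0.024), Mcm6 at 0.065 (0.39) and Mcm2 at 0.18 (0.24). The neutrophil and Kupffer cell markers, whose sums were also highest in Nod2-/- 7, are given above, and their part in these values was not tested.

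Helicase activation held the 2 most abundant genes of the list and 2 of the 3 with lower levels in Nod2-/- mice at an unadjusted p under 0.05. Mcm10 (chromosome 2, 4989714 to 5012791), which helps the loaded helicase start and stays with the fork, had 2264, 2867 and 3964 normalized counts in WT mice and 941, 1369 and 3372 in Nod2-/- mice (lowest, median and highest). Of the 7 Nod2-/- mice, 5 lay below every WT mouse, while Nod2-/- 1 lay above the WT median. The log2 fold change was -0.78 ± 0.26 (SE, adjusted p = 0.108 by edgeR). Without Nod2-/- 1, the only Nod2-/- mouse above the WT median, it was -1.04 and passed 5% FDR by edgeR (adjusted p = 0.0328). The share of all genes past 5% FDR in that fit is not given here, so this call depends on leaving out 1 mouse. The coefficient of variation of Mcm10 was 18.9% in WT mice and 50.7% in Nod2-/- mice, and no other gene of the annotation shares its exons. Gins4 (chromosome 8, 23226616 to 23237659) had 235, 332 and 378 normalized counts in WT mice and 215, 267 and 301 in Nod2-/- mice. Every Nod2-/- mouse lay below the WT median, and the log2 fold change was -0.29 ± 0.12 (SE, adjusted p = 0.161). It passed 5% FDR without WT 3, the lowest WT mouse for this gene (log2 fold change -0.38, adjusted p = 0.0407, where 3.37% of all genes passed with lower levels). The remaining activators had log2 fold changes of 0.099 (Cdc45), 0.18 (Gins1), 0.31 (Gins2) and 0.071 (Gins3), each smaller than its standard error, and their groups overlapped. Without Nod2-/- 7, the highest mouse for the first 3 of them, the values were -0.10 (Cdc45), 0.12 (Gins1), 0.12 (Gins2) and 0.0044 (Gins3).

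Primase and polymerase alpha, which lay down the primers, showed small differences. The log2 fold changes were 0.097 for Pola1, 0.16 for Pola2, -0.12 for Prim1 and -0.069 for Prim2. Prim1 (chromosome 10, 128015168 to 128030037), the catalytic primase subunit and the most abundant of these genes per length, had 45.0 to 80.7 normalized counts in WT mice (median 64.0) and 39.9 to 84.2 in Nod2-/- mice (median 59.2), with full overlap (SE 0.20, adjusted p = 0.745). Of the catalytic subunits that extend the strands, Pold1 (chromosome 7, 44532746 to 44548849), of the polymerase for the lagging strand, had 43.9 to 69.1 normalized counts in WT mice (median 63.9) and 50.6 to 78.5 in Nod2-/- mice (median 69.9). Its log2 fold change was 0.14 ± 0.15 (SE, adjusted p = 0.588). Pole, of the polymerase for the leading strand, had a log2 fold change of -0.23 ± 0.18 (SE), the opposite sign (-0.34 without Nod2-/- 7), and neither difference exceeded the spread between mice.

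The sliding clamp Pcna (chromosome 2, 132249162 to 132253314) encircles DNA and tethers the polymerases, and it is a common marker of cycling cells. It had 234, 253 and 289 normalized counts in WT mice and 251, 280 and 332 in Nod2-/- mice, a log2 fold change of 0.13 ± 0.086 (SE, adjusted p = 0.363). Its level was among the steadiest of the list, with a coefficient of variation of 7.28% in WT and 10.7% in Nod2-/- mice. Its processed pseudogene Pcna-ps2 had at most 23 counts in any mouse. Among the clamp loader genes, Rfc3 (chromosome 5, 151642756 to 151651242) had 68.0, 73.4 and 79.4 normalized counts in WT mice and 75.3, 94.5 and 137 in Nod2-/- mice. All 7 Nod2-/- mice lay above the WT median and 5 above the highest WT mouse, with a log2 fold change of 0.38 ± 0.14 (SE, adjusted p = 0.138). The other loader subunits, which join Rfc3 in 1 complex, had log2 fold changes of -0.097 (Rfc1), 0.22 (Rfc2), -0.046 (Rfc4) and 0.023 (Rfc5, -0.025 without Nod2-/- 7).

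The 3 subunits of RPA, the protein that coats exposed single strands, did not share a direction. Rpa1 (chromosome 11, 75298166 to 75348324), the large DNA-binding subunit, had 539, 631 and 662 normalized counts in WT mice and 451, 528 and 613 in Nod2-/- mice (lowest, median and highest). All 7 Nod2-/- mice lay below the WT median and 4 below every WT mouse, of which WT 6 was the lowest and set apart from the others. The log2 fold change was -0.25 ± 0.083 (SE, adjusted p = 0.105), past 5% FDR by DESeq2 as given above. Rpa2 and Rpa3, the smaller subunits, had log2 fold changes of 0.24 ± 0.13 and 0.21 ± 0.14 (SE), with adjusted p = 0.278 and 0.374 by edgeR. The difference between the subunits was not tested.

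Joining of Okazaki fragments, the short pieces of the lagging strand, needs Fen1, which trims them, and Lig1, which seals them. Lig1 (chromosome 7, 13277283 to 13311433) had 24.3, 33.8 and 50.6 normalized counts in WT mice and 38.0, 62.5 and 102 in Nod2-/- mice. All 7 Nod2-/- mice lay above the WT median and 5 above the highest WT mouse. Its log2 fold change was 0.75 ± 0.25 (SE, adjusted p = 0.106), and 0.59 without Nod2-/- 7, the highest mouse. Lig1 shares 247 exon bases with Zswim9 on the opposite strand, which was of a like level (64.2 against 49.8 normalized counts on average). Fen1 (chromosome 19, 10199132 to 10204169) had 50.4, 55.8 and 72.3 normalized counts in WT mice and 43.1, 76.0 and 91.0 in Nod2-/- mice, where the low value was that of Nod2-/- 5 alone. The log2 fold change was 0.34 ± 0.17 (SE, adjusted p = 0.234), and Fen1 shares 130 exon bases with the more abundant Tmem258.

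Nucleotide supply was represented by both subunits of ribonucleotide reductase, the enzyme that makes deoxynucleotides, and by Tyms, and none of the 3 genes passed 5% FDR. Rrm2 (chromosome 12, 24708241 to 24714146), the subunit that is limiting and made mainly in S phase, had 11.0, 12.7 and 15.4 normalized counts in WT mice and 10.3, 20.5 and 63.7 in Nod2-/- mice. Of the 7 Nod2-/- mice, 5 lay above the highest WT mouse, and Nod2-/- 7 held the value of 63.7. The log2 fold change was 0.96 ± 0.37 (SE, adjusted p = 0.148), or 0.55 ± 0.26 (SE, adjusted p = 0.283) without Nod2-/- 7. Rrm1, the larger subunit, had a log2 fold change of -0.012 ± 0.10 (SE), and the difference between the subunits was not tested. Tyms (chromosome 5, 30058202 to 30073617), the thymidylate synthase and per length the most abundant of this group, had 107 to 156 normalized counts in WT mice (median 131) and 97.6 to 140 in Nod2-/- mice (median 124), a log2 fold change of -0.11 ± 0.12 (SE, adjusted p = 0.615).

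Copying of methylation marks and of chromatin follows the fork. Uhrf1 (chromosome 17, 56303321 to 56323486), which finds DNA with a mark on the old strand only and recruits Dnmt1, had 4.39, 10.6 and 13.6 normalized counts in WT mice and 11.4, 13.4 and 45.1 in Nod2-/- mice. All 7 Nod2-/- mice lay above the WT median, 3 above the highest WT mouse, and the log2 fold change was 1.01 ± 0.38 (SE, adjusted p = 0.137), or 0.64 ± 0.29 (SE, adjusted p = 0.268) without Nod2-/- 7. Dnmt1 (chromosome 9, 20907209 to 20959888), the methyltransferase it works with, had 140 to 234 normalized counts in WT mice (median 192) and 160 to 221 in Nod2-/- mice (median 195), a log2 fold change of 0.013 ± 0.12 (SE, adjusted p = 0.959). CAF-1, which deposits histones on new DNA, has the subunits Chaf1a and Chaf1b in the list. Chaf1b (chromosome 16, 93883901 to 93906115) had 7.67, 15.9 and 26.2 normalized counts in WT mice and 13.2, 26.4 and 52.9 in Nod2-/- mice, with a log2 fold change of 0.70 ± 0.36 (SE, adjusted p = 0.257), or 0.46 ± 0.33 (SE, adjusted p = 0.484) without Nod2-/- 7, the highest mouse. Chaf1a had a log2 fold change of -0.24 ± 0.19 (SE, adjusted p = 0.454), or -0.36 without that mouse, and it shares 4648 exon bases with the more abundant Ubxn6 on the opposite strand. In all, 10 of the 41 genes share exon bases with another protein-coding gene, always on the opposite strand, and for 9 of them a partner is the more abundant gene.

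**Figure D3:**
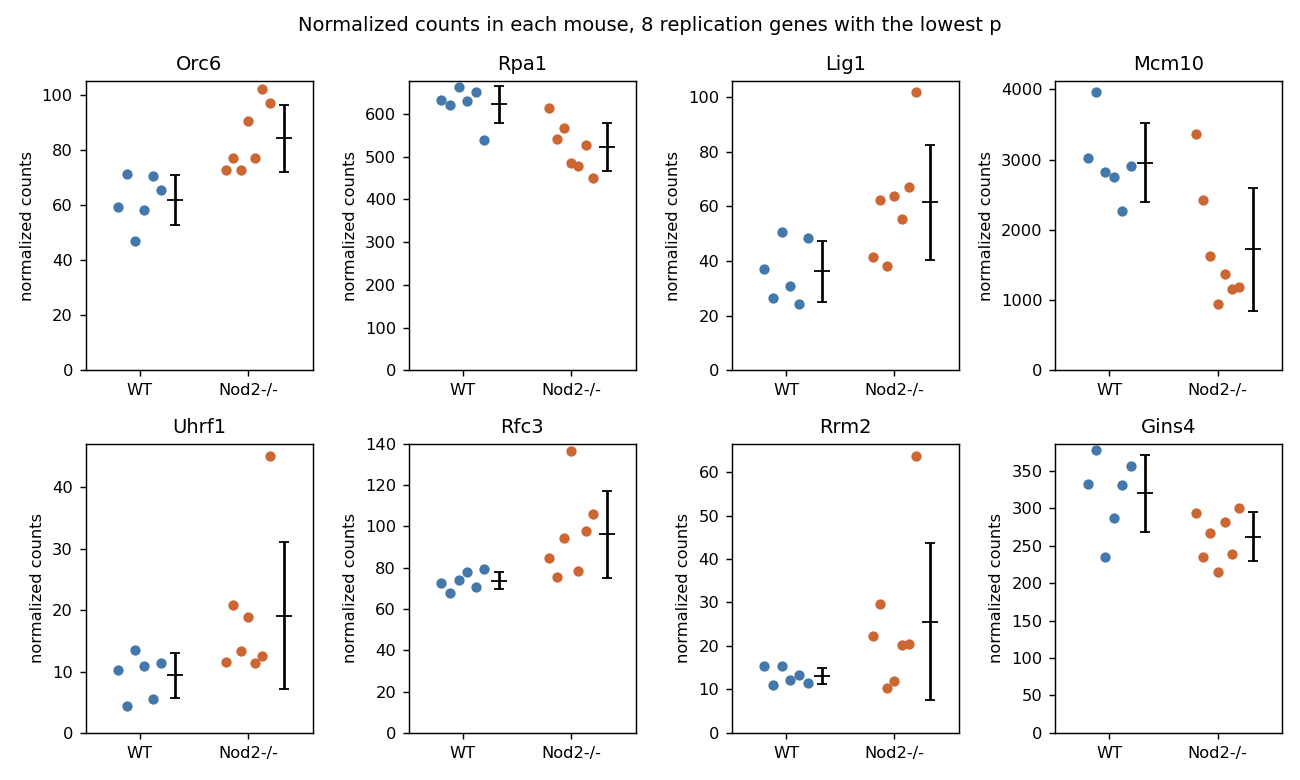
Normalized counts of each mouse (points), with group mean and SD (black), for the 8 replication genes with the lowest unadjusted p, each panel on its own axis from 0, with WT in blue (n = 6) and Nod2-/- in orange (n = 7). Orc6 alone has no overlap between the genotypes, and in Uhrf1 and Rrm2 the mouse Nod2-/- 7 lies far above all others.

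The mice differed in how many replication genes were at their extreme. Nod2-/- 7 had the highest value for 15 of the 39 tested genes (38.5%), while it had the highest value for 11.7% of all genes tested. These were Cdt1, Mcm2, Mcm3, Mcm5, Mcm6, Cdc45, Gins1, Gins2, Pole, Rfc5, Lig1, Rrm2, Uhrf1, Chaf1a and Chaf1b. Nod2-/- 6 followed with 9 genes (23.1%, against 10.6% of all genes), a different set that held Orc6, Gmnn, Mcm7, Pola2, Pold1, Pcna, Rpa2, Rpa3 and Fen1. No WT mouse was highest for more than 3 genes. Nod2-/- mice, 7 of the 13, were highest for 31 of the 39 genes, 15 of these in Nod2-/- 7 alone. The joint share of Nod2-/- mice over all genes is not given here, so the count of 31 is not a result about the list. Over all genes tested, each Nod2-/- mouse was highest for 2.53% to 13.1% and each WT mouse for 4.78% to 11.5%. The lowest values were split almost evenly between the genotypes, with 20 genes lowest in a WT mouse and 19 lowest in a Nod2-/- mouse. They were not spread evenly over the mice. WT 2 was lowest for 8 genes (20.5%, against 12.2% of all genes), Nod2-/- 4 for 7 (17.9%, against 13.4%) and WT 6 for 0. The median log2 ratio of the 39 genes to their WT mean, taken on log2 of normalized counts plus 1, was 0.35 in Nod2-/- 7 and between -0.054 and 0.11 in the other Nod2-/- mice. In WT mice it was between -0.11 and 0.093, so that Nod2-/- 7 alone lay outside a range of -0.11 to 0.11.

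**Figure D4:**
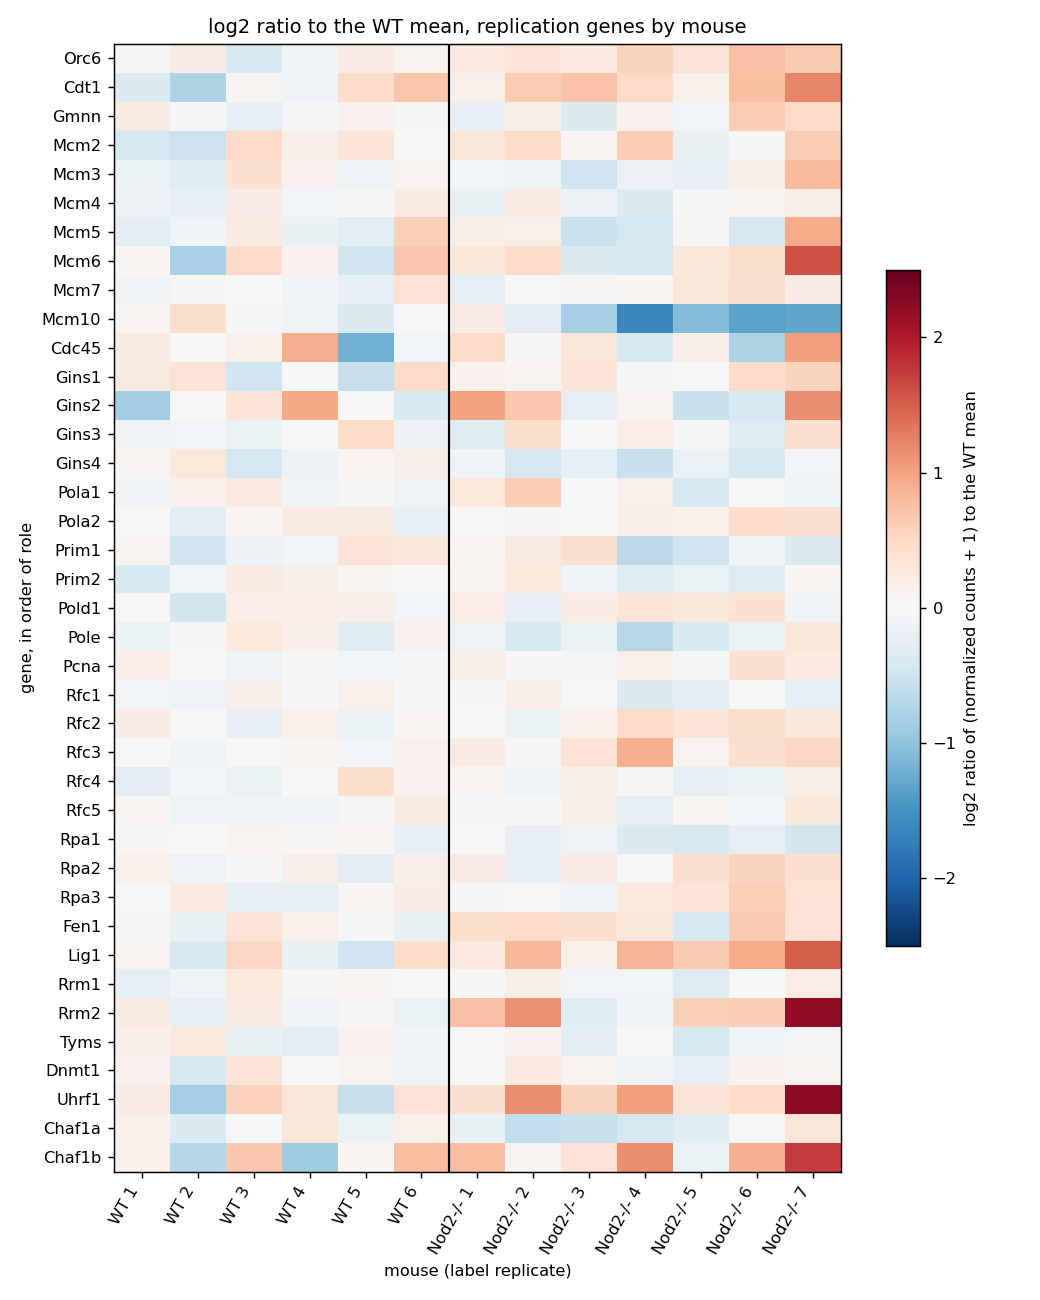
Log2 ratio of normalized counts plus 1 to the WT mean for the 39 tested replication genes in each mouse, with genes in order of role, WT mice to the left of the line and Nod2-/- mice to its right. Nod2-/- 7 is red for 15 genes at their highest value, among them Mcm6, Lig1, Rrm2 and Uhrf1, and Mcm10 is blue in the Nod2-/- mice from 2 to 7.

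Other genes of replication and its control were taken from a list of 58, of which 50 were tested. By edgeR, 1 passed 5% FDR, with lower levels in Nod2-/- mice, 0 passed with higher levels, and 13 had an unadjusted p under 0.05 (9 higher and 4 lower), where 23.1% of all genes tested did (12.9% higher and 10.2% lower). The gene that fell was E2f8, an atypical E2F factor that represses cell cycle genes and acts in the polyploidy of hepatocytes. E2f8 had 160, 243 and 273 normalized counts in WT mice (lowest, median and highest) and 31.9, 72.4 and 118 in Nod2-/- mice, without overlap. Its log2 fold change was -1.53 ± 0.25 (SE, adjusted p = 0.00828), and -1.47 without Nod2-/- 7 (adjusted p = 0.0218). With the replicate number of the labels as a block, which did not pair the mice, it was -1.52 and did not pass 5% FDR (adjusted p = 0.0746). The other E2F and RB genes had values such as 0.79 for E2f2 (SE 0.22, adjusted p = 0.0723), an activating E2F, and -0.36 for the pocket protein gene Rbl2 (SE 0.11, adjusted p = 0.0959). Next to the polymerases, Pold3, an accessory subunit of polymerase delta, had a log2 fold change of 0.32 ± 0.10 (SE, adjusted p = 0.0959) and Pold4 had 0.63 ± 0.29 (adjusted p = 0.205). Of the fork genes, Wdhd1, which couples helicase and polymerase alpha, was at 0.66 ± 0.20 (SE, adjusted p = 0.0867) and the nuclease Dna2 was at 0.39 ± 0.12 (adjusted p = 0.0945). In the remaining lists, the log2 fold changes of the genes with the lowest p were 0.46 for Mtbp and 0.076 for Orc4 (origins), -0.44 for Tk1 and 0.31 for Nme1 (nucleotides), and -0.31 for Rbbp4 and 0.25 for Slbp (chromatin), and none passed 5% FDR.

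Mitosis genes had a median log2 fold change of 0.96, against 0.11 for the replication genes, and without Nod2-/- 7 the medians were 0.79 and 0.075. Of 17 such genes 12 were tested, and all 12 had a fitted log2 fold change above 0 (52.3% of all genes). By edgeR 0 passed 5% FDR, and 7 had higher levels at an unadjusted p under 0.05 (12.9% of all genes). Without Nod2-/- 7, the highest mouse for 11 of the 17, there were again 7 of 12 at that threshold (10% of all genes) and 0 past 5% FDR. DESeq2 called 6 of them higher at 5% FDR, where it called 4.38% of all genes higher. Mki67, the gene of the proliferation marker Ki-67, had 8.77, 25.0 and 88.6 normalized counts in WT mice and 27.3, 65.0 and 191 in Nod2-/- mice, a log2 fold change of 1.54 ± 0.52 (SE, adjusted p = 0.108). The topoisomerase Top2a had 4.39, 19.96 and 61.5 normalized counts in WT mice and 25.5, 35.3 and 101 in Nod2-/- mice, a log2 fold change of 0.94 ± 0.46 (SE, adjusted p = 0.236). The highest WT value of both was that of WT 3, and without that mouse 2 mitosis genes passed 5% FDR by edgeR, among them Mki67 (log2 fold change 2.11, adjusted p = 0.0265), where 5.12% of all genes passed with higher levels. Without Nod2-/- 7, the log2 fold change was 1.29 for Mki67 (adjusted p = 0.21) and 0.65 for Top2a (adjusted p = 0.439). The kinases Cdk1 and Aurka had log2 fold changes of 0.89 ± 0.28 and 0.65 ± 0.22 (SE), with adjusted p = 0.0966 and 0.107 by edgeR, and of 0.79 and 0.57 without Nod2-/- 7. By mouse, the median log2 ratio of the 12 mitosis genes to their WT mean was 2.20 in Nod2-/- 7, 2.06 in Nod2-/- 2 and 1.24 in Nod2-/- 1, and 1.17 in WT 3 (the highest WT mouse). In Nod2-/- 2 and Nod2-/- 1 the median of the replication genes was only 0.11 and 0.091, and in WT 3 it was 0.093. The difference between the lists of genes was not tested.

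**Figure D5:**
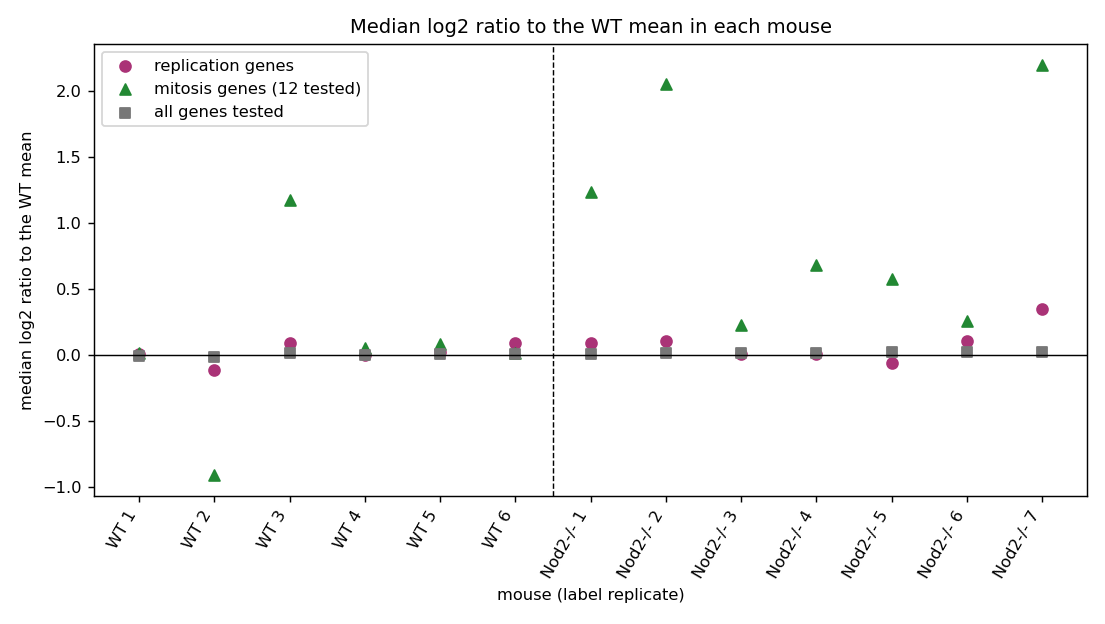
Median log2 ratio to the WT mean in each mouse for the 39 tested replication genes (purple circles), 12 tested mitosis genes (green triangles) and all genes tested (grey squares). The replication genes stay between -0.11 and 0.11 in every mouse but Nod2-/- 7 (0.35), while the mitosis genes run from -0.91 in WT 2 to 2.20 in Nod2-/- 7.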

How the data were processed

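Liver RNA of 6 WT and 7 Nod2-/- mice was sequenced with strand-specific libraries of polyadenylated RNA. The authors trimmed reads (Trimmomatic 0.33), mapped them with TopHat2 2.1.1 to GRCm38, counted them on GENCODE M16 genes and deposited the raw counts per gene and mouse. The counting program is not given in the sources used here, nor its use of strand. An entry with a blank name held 0 counts and was left out.

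Genotypes and replicate numbers come from the labels. Genes kept by filterByExpr (13545, with 99.9% of counts) were tested on the counts with edgeR 4.0.16 in R 4.3.3 (TMM, glmQLFit, glmQLFTest, two-sided, Benjamini-Hochberg at 0.05). The scripts were tested on simulated data. For normalized counts, each library was scaled to the mean of the TMM-corrected library sizes. RPKM values use merged exons of GENCODE M21, also the source of positions on GRCm38. The 36 pairs of libraries within a genotype differed by more than sampling noise (chi-square divided by its degrees of freedom, 11.6 to 177), and nothing was merged. The labels give 1 library per mouse, so p-values measure the spread between these mice.

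The members and lists were chosen with earlier results of these data known. Values in every mouse or as lowest, median and highest are given for members past 5% FDR, the 8 with the lowest p, the most abundant of each role per length and those below the filter. Other genes named are those past 5% FDR, or the 2 with the lowest p of each list, with Mki67 and Top2a. Mpo, Elane, Sox9, Spp1, Krt7, Krt19, Epcam, E2f2, Rbl2, Cdt1, Mcm3, Mcm5 and Mcm6 were given values after they were seen. Alternatives were DESeq2 1.42.0, RLE normalization, no filter on low counts, voomWithQualityWeights of limma 3.58.1, the replicate number as a block, and leaving out each mouse.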

Additional observations from a re-analysis of the deposited data

Results flagged for a closer look

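Among 112 groups of 6 or 7 mice examined (the members and the other named genes in each genotype), 12 had a highest or lowest mouse far from the others by Dixon's criterion, which chance gives in about 1 in 20 groups. Of these, 5 concerned Nod2-/- 7, which had the highest value for Mcm3 (145 normalized counts, next mouse 93.3), Mcm5 (106, next 62.4), Mcm6 (97.0, next 43.6), Rrm2 (63.7, next 29.7) and Uhrf1 (45.1, next 20.8). In WT 3, Mki67 was at 88.6 normalized counts (next 34.0) and Top2a at 61.5 (next 25.4). WT 6 was the lowest WT mouse for Rpa1 (539, next 621) and the highest for Nme1 (825, next 549), and WT 5 was the highest for Gins3 (24.3, next 17.5). Nod2-/- 5 was the lowest Nod2-/- mouse for Fen1 (43.1, next 70.8), and Nod2-/- 4 was the highest for Pold4 (1303, next 526.3).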

How the results depend on the processing

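Of the 39 tested members, 10 changed the sign of their log2 fold change in at least 1 of 18 alternatives, and their main values were all within 0.099 of 0. The sign turned with voomWithQualityWeights for Mcm3 (-0.017), Gins3 (-0.016) and Rrm1 (0.022), with DESeq2 for Dnmt1 (-0.0047), and with no filter on low counts for Dnmt1 (-0.0031). Past 5% FDR, DESeq2 called 2 members lower (Mcm10 and Rpa1), 1 other replication or E2F gene higher and 2 lower, and 6 mitosis genes higher. Of all genes it tested, DESeq2 called 4.38% higher and 4.03% lower. With voomWithQualityWeights, 2 of 50 tested other replication or E2F genes and 2 of 12 tested mitosis genes were called higher. The share of all genes called in that fit is not given here, so these counts are not a result about the lists. With RLE normalization 0 members had groups without overlap. The cause was not tested.

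With the replicate number as a block, the sign turned for Mcm3 (-0.15), Mcm5 (-0.18), Cdc45 (-0.063), Gins3 (-0.012) and Rfc5 (-0.024). In that block fit, 3 members had an unadjusted p under 0.05 with higher levels (6 without it), and 0 other replication or E2F genes were called lower, as E2f8 had a log2 fold change of -1.52 and an adjusted p of 0.0746. The numbers did not pair the mice, since the correlations of the deviations of same-numbered mice were 0.037, -0.15, -0.086, -0.30, -0.042 and 0.29, and no mouse correlated best with its own number.

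Leaving out each mouse in turn gave 0 to 0 members called higher and 0 to 1 lower, 4 to 8 members at an unadjusted p under 0.05 with higher and 2 to 3 with lower levels, 0 to 1 other replication or E2F genes higher and 1 to 1 lower, 0 to 2 mitosis genes higher and 0 to 0 lower, a median log2 fold change of 0.075 to 0.13, and 1 to 2 members without overlap. The member called lower came with WT 3 (Gins4) or Nod2-/- 1 (Mcm10) left out, and the calls of other replication, E2F and mitosis genes as higher came with WT 3 left out. In the fit without WT 3, 5.12% of all genes passed 5% FDR with higher levels and 3.37% with lower levels. Shares over all genes are not given here for every one of these fits, so these ranges are not a result about the lists. The 4 members and the median of 0.075 belong to the fit without Nod2-/- 7, the 2 members with lower levels to those without WT 2, WT 6 or Nod2-/- 4, and the 2 without overlap to that without WT 6. The log2 fold changes that turned sign ran from -0.16 to 0.098 for Mcm3, -0.096 to 0.0088 for Mcm4, -0.19 to 0.17 for Mcm5, -0.10 to 0.33 for Cdc45, -0.0078 to 0.18 for Gins3, -0.015 to 0.17 for Pola1, -0.10 to 0.053 for Rfc4, -0.025 to 0.073 for Rfc5, -0.059 to 0.036 for Rrm1 and -0.059 to 0.072 for Dnmt1. Low counts limit Orc1, Cdc6, Uhrf1, Rrm2 and Chaf1b.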
